A study of Rattus norvegicus with 12 samples.

Results

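Dusp1, Dusp5 and Dusp6 are dual-specificity phosphatases that remove phosphate from MAP kinases, and Ptp4a1 is a prenylated phosphatase of the PRL family. They were followed in the left ventricle of rats after 7 weeks of treadmill running (6 exercised arrays) and in sedentary rats (6 arrays). The members were all probe sets whose annotation gives 1 gene symbol equal to one of these 4 names, which gives 4 of 4736 genes and 7 of 8740 probe sets: 3 for Dusp1, 1 for Dusp5, 2 for Dusp6 and 1 for Ptp4a1. All 7 passed the filter on dim probe sets, which kept 6555. The 4 genes were chosen by values of this same contrast, in which Ptp4a1 was among the changed genes and Dusp5 lay just beyond the threshold, so the differences between exercised and sedentary samples below are a description and not a test.

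Total RNA of the left ventricle was hybridised to 1 array per sample, and nothing in the labels tells of a treatment, genotype or surgery besides running. The labels give no strain, sex or age of the rats, no running schedule and no time between the last run and tissue collection. They also do not say that each numbered sample is a separate animal, so any p-value measures only the spread of these samples, and that spread may be technical. Samples are named by group and label number (exercised 1, 4, 5, 7, 8 and 9 and sedentary 13, 16, 17, 21, 23 and 24). Intensities are in the arbitrary linear units of the deposited table, and they compare samples for 1 probe set, not probe sets with each other. In whole tissue, fewer cells of a type and less RNA per cell cannot be told apart.

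The MAP kinase cascade carries growth and stress signals from the membrane to the nucleus by adding phosphate to ERK, JNK and p38 kinases, and dual-specificity phosphatases end the signal by taking phosphate off both the threonine and the tyrosine of the kinase. Several of them are themselves induced by the cascade and so act as feedback brakes. In heart muscle, ERK signalling is known for its link to growth of the cardiomyocyte. PRL phosphatases such as Ptp4a1 are anchored to membranes by a prenyl group and are known for binding CNNM magnesium transporters.

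The 4 genes differ in the regulatory letters near their start sites, and the stretches below show where. Windows of 300 bases, from 250 before to 50 after each RefSeq start (GRCr8), were searched on both strands for the cyclic AMP response element TGACGTCA, its core TGACG (which lies inside the full element), the CArG box of serum response factor and the E-box CACGTG. All 4 genes had a window. Each stretch runs from 10 bases before the first match to 10 after the last, 5′ to 3′ on the strand of the gene, with matches in capitals.

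Dusp1 (chr10:17184671-17184761, plus strand): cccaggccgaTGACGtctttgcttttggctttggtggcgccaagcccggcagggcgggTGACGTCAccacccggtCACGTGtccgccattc
Dusp5 (chr1:262543682-262543733, plus strand): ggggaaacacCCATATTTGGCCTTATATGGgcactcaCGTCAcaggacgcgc
Ptp4a1 (chr9:40718183-40718309, minus strand): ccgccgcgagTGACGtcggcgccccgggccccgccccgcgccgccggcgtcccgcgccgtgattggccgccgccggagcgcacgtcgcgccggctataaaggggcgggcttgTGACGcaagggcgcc

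The Dusp1 window holds a full cyclic AMP element at -124 to -117, a core at -172 to -168 and an E-box at -107 to -102. The Dusp5 window holds 2 CArG boxes side by side, at -82 to -73 and -72 to -63, followed by a core read on the other strand at -55 to -51. Ptp4a1 has 2 cores, at -123 to -119 and -21 to -17, and the Dusp6 window (chr7:35979354-35979653, plus strand) has none of these 4. Of 33469 windows of this length, 1.83% hold the full element, 21.2% the core, 1.64% a CArG box and 6.42% the E-box. Of 27 listed early genes with a window, 5 hold the full element, 18 the core, 4 a CArG box (Egr1, Egr2, Klf6 and Zfp36) and 3 the E-box. Of 31 other listed dual-specificity and PRL phosphatases, 2 hold the full element, 11 the core, 0 a CArG box and 4 the E-box. The GC box GGGCGG (Dusp1, Dusp5 and Ptp4a1; 33.1% of all windows), CCAAT (Dusp6 and Ptp4a1; 37.5%) and CCGGAA (Dusp5; 5004 of 33469) were also searched on both strands and are not marked in the stretches. A match is a description of letters and not a site in use.

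The arrays were on a common scale, with medians of 840 to 875. Of 10 cardiomyocyte markers fixed for checking the tissue, 9 were on the array and 9 passed the filter, with summed intensities of 339400 to 374600 on sedentary and 348000 to 374000 on exercised arrays. Exercised 4 and 5 stood apart in the haemoglobin gene Hbb, at 15784 and 8786 against 28362 to 37794 on the other 10 arrays, and sedentary 16 in the atrial gene Myl7, at 8652 against 1136 to 1923 on the other 11. The values of the 4 genes without exercised 4 and 5 are given below. Without sedentary 16 and 17 the difference of Ptp4a1 was 0.343 and that of Dusp5 -0.155 (limma adjusted p = 0.0846 each). In all, 21 of 6555 probe sets (0.320%) had an adjusted p under 0.05 in limma, with Benjamini-Hochberg adjustment over all of them. The groups did not overlap in 136, or 2.07%. Of the 7 probe sets of the 4 genes, 1 passed and 2 had groups that did not overlap. Both counts belong to the contrast by which the genes were chosen, so nothing is read from them.

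Ptp4a1 (L27843_s_at) was the member with the largest difference between the group means. Its sedentary intensities ran from 1625 through a median of 2054 to 2185, and its exercised intensities from 2378 through 2829 to 3162. The lowest exercised sample therefore lay above the highest sedentary one, and the group means were 2014 ± 200 and 2781 ± 297 (SD, n = 6 each), a ratio of 1.38. In log2(intensity + 363), a scale on which low values appear to change less than they do, the exercised minus sedentary difference was 0.40 ± 0.073 (SE), with an adjusted p of 0.0385 in the limma fit, a value that helped to choose the gene. Sedentary 17, at 1625, was well below the other sedentary samples, which began at 2030, and the difference without it was 0.35. Without exercised 4 and 5 the difference was 0.41 (limma adjusted p = 0.113). Only 4 of the 12 fits that left out 1 array kept the adjusted p under 0.05 (those without exercised 1, exercised 4, sedentary 13 or sedentary 17), and the highest was 0.0922. The suffix s_at marks, in the naming of such arrays, a probe set whose probes may match more than 1 transcript. All 3 Dusp1 probe sets and the brighter Dusp6 one carry the same suffix.

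Ptp4a2, the close relative of Ptp4a1 with the same prenyl anchor, was measured by its own probe set (AJ007016_at). It went from 6066 ± 809 to 5962 ± 474, a log2 difference of -0.02 ± 0.080 (limma adjusted p = 0.927). The difference between the changes of the 2 relatives was not tested. Ptp4a3 was not analysed here.

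Dusp5 (AF013144_at), an inducible phosphatase of the nucleus that acts on ERK, lay lower in every exercised sample than in any sedentary one. Sedentary intensities ran from 1186 through a median of 1208 to 1241 and exercised ones from 969 through 1055 to 1088. The means were 1209 ± 18.9 and 1041 ± 45.4 (SD, n = 6 each), a ratio of 0.861 and a log2 difference of -0.16 ± 0.033 (SE), with an adjusted p of 0.0542 that put it at rank 22 of the 6555 probe sets. The step was small, 0.16 on the log2 scale, but so was the spread. The within-group SD of Dusp5, 0.0355 on the log2 scale, was at percentile 1.2 of all tested probe sets. The adjusted p was under 0.05 in the fits without exercised 1 (0.0470) or sedentary 17 (0.0403), and reached 0.104 without exercised 7. Without exercised 4 and 5 the difference was -0.17 (limma adjusted p = 0.181).

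Dusp1, the inducible nuclear phosphatase that acts on p38, JNK and ERK and is also known as a glucocorticoid-induced gene, did not separate the groups. On its brightest probe set (U02553cds_s_at) sedentary intensities ran from 2074 through 2956 to 3252 and exercised ones from 2269 through 2656 to 3077. The ranges nearly coincide, with means of 2770 ± 462 and 2659 ± 331 and a log2 difference of -0.04 ± 0.10. The second probe set (S74351_s_at) ran from 1013 to 1584 in sedentary and from 977 to 1512 in exercised samples, a difference of -0.05 ± 0.11. The third and dimmest (S81478_s_at) ran from 439 to 692 and from 480 to 659, a difference of -0.07 ± 0.069. All 3 differences were negative, and each was at most slightly larger than its own standard error. Without exercised 4 and 5 they were 0.02, 0.02 and -0.04, and with 1 array left out the brightest ran from -0.114 (without sedentary 17) to -0.001 (without sedentary 24).

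The spread of Dusp1 lay within the groups rather than between them, and its probe sets shared it. The within-group SD of the brightest probe set was 0.194 on the log2 scale, at percentile 91.6 of all tested probe sets, and that of the second was 0.208, at percentile 93.5. The same 5 arrays were lowest on both, exercised 4, 5 and 9 and sedentary 13 and 17, at 2074 to 2503 against 2810 to 3252 on the other 7 arrays for the brightest and at 977 to 1121 against 1349 to 1584 for the second. The third probe set shared 4 of its 5 lowest arrays with them. Each sample was therefore low or high in Dusp1 on 2 probe sets at once, in both groups.

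With group means removed, the deviations of the brightest and second Dusp1 probe sets over the 12 arrays had a Pearson r of 0.948 and a Spearman rho of 0.902 (within-group permutation, adjusted p = 0.0004 and 0.0015 over 4 pairs of probe sets). Without the 2 arrays farthest from the median r was 0.966, and over the 7 arrays outside the low group it was 0.762. The third probe set had an r of 0.780 with the brightest (permutation adjusted p = 0.011, rho 0.608 with 0.063) and 0.713 with the second (0.016, rho 0.678 with 0.049). Over the same 7 arrays these fell to -0.177 and 0.073, so the agreement of the third probe set rests on the low arrays. The comparison of probe sets was made after the values were seen, and the low group was taken from the brightest probe set, so these p-values are a description. The probe sets measure the same RNA samples and are not independent samples of Dusp1 expression. They all carry the suffix s_at, so their probes may match more than 1 transcript.

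**Figure D1:**
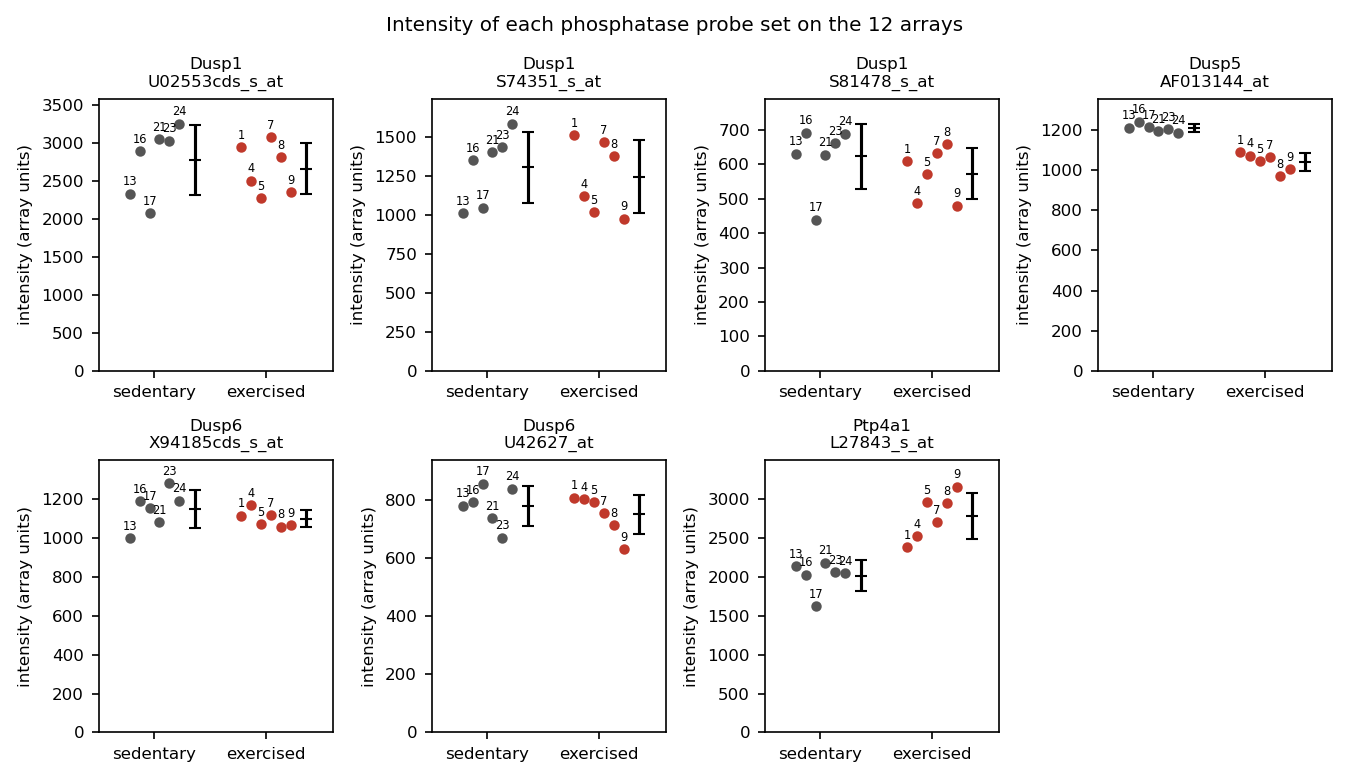
Intensity in array units of the 7 probe sets on each array, with sedentary samples in grey and exercised samples in red, numbered as in the labels, and the mean and SD (n = 6) beside each group. Ptp4a1 and Dusp5 separate the groups without overlap, from 2378 against 2185 upward and from 1088 against 1186 downward, whereas Dusp1 and Dusp6 overlap.

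Dusp4, another inducible nuclear phosphatase, was the nearest measured relative of Dusp1 and Dusp5. It went from 2923 ± 212 to 2687 ± 101, a log2 difference of -0.11 ± 0.051 that did not pass (limma adjusted p = 0.323).

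Dusp6, the cytoplasmic phosphatase that is specific for ERK, differed little between the groups. On its brighter probe set (X94185cds_s_at) sedentary intensities ran from 998 through 1173 to 1282 and exercised ones from 1059 through 1093 to 1171, with all exercised samples inside the sedentary range. The means were 1150 ± 98.7 and 1100 ± 43.1, a log2 difference of -0.05 ± 0.045. The other probe set (U42627_at) ran from 669 through 785 to 854 and from 630 through 772 to 807, a difference of -0.04 ± 0.050. Without exercised 4 and 5 this difference was -0.07. Dusp7, the related cytoplasmic phosphatase, gave -0.04 ± 0.051 (2921 ± 204 to 2822 ± 128, limma adjusted p = 0.687).

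The deviations of the 2 probe sets of Dusp6 had a Pearson r of 0.027 and a Spearman rho of 0.322 (within-group permutation, adjusted p = 0.94 and 0.36 over the 4 pairs). Sedentary 13 was lowest on the brighter probe set and sedentary 23 highest on it but lowest of its group on the other. Without these 2 arrays r was 0.632. Their agreement thus depends on those arrays, and the difference from Dusp1 in this respect was not tested.

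**Figure D2:**
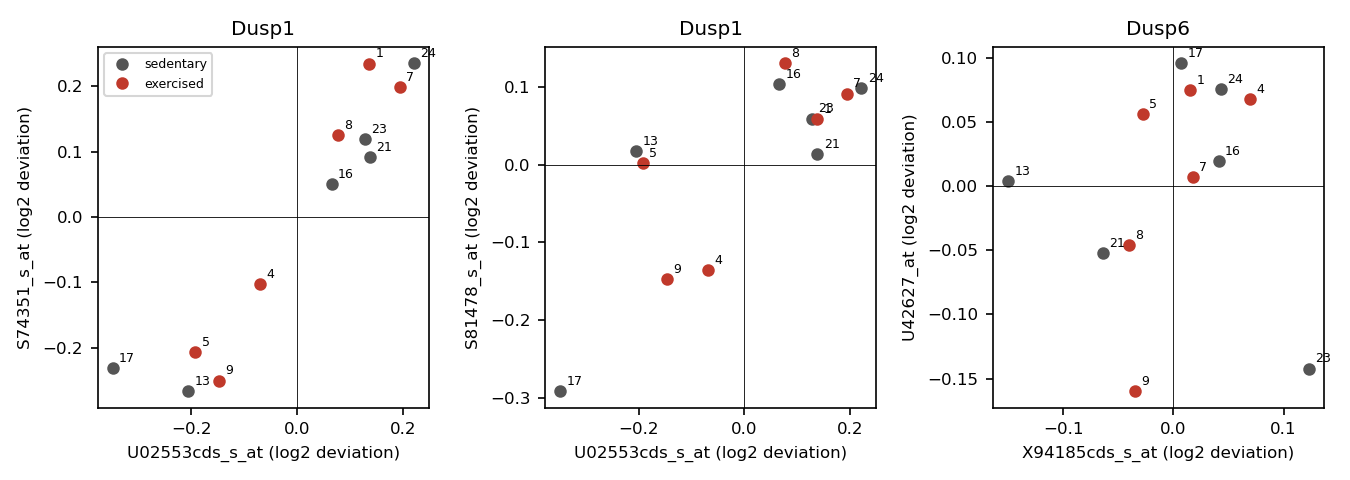
Deviation of each array from its group mean, in log2(intensity + 363), for pairs of probe sets of Dusp1 (left and middle) and of Dusp6 (right), with sedentary samples in grey and exercised in red. The Dusp1 points of the left panel lie along a line (r = 0.948), with exercised 4, 5 and 9 and sedentary 13 and 17 at its lower end, and the Dusp6 points scatter (r = 0.027, or 0.632 without sedentary 13 and 23).

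The 4 genes were then compared with each other and with gene groups across samples within the groups, a measure that does not use the difference between exercised and sedentary rats. There were 18 relations, 6 between the genes and 12 with the means of early, glucocorticoid response and clock genes, each over 12 arrays with group means removed. None passed after adjustment over the 18 by Pearson or Spearman (within-group permutation, 100000 resamples), and 2 had an unadjusted p under 0.05 by either. Both involved Dusp5. With Ptp4a1 it had an r of -0.604 (permutation p = 0.0494, adjusted 0.445) and a rho of -0.755 (0.0122, adjusted 0.110), with -0.794 among exercised and -0.254 among sedentary samples. Without the 2 arrays farthest from the median, exercised 1 and 8, r was -0.549, and with quantile normalization of the arrays it was -0.325.

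Against the mean of 8 clock genes Dusp5 had an r of -0.779 (permutation p = 0.0120, adjusted 0.216) and a rho of -0.825 (0.00498, adjusted 0.0896). The r was -0.793 among the exercised and -0.789 among the sedentary samples, and -0.691 without exercised 1 and 8. Among exercised samples, 8 and 9 were low in Dusp5 and high in the clock mean, and 1 and 4 the reverse. Each list mean was taken over unscaled log2 deviations, so genes that vary more weigh more. Within-group SD was 0.544 for Dbp and 0.373 for Nr1d2, against 0.0726 to 0.185 for the other clock genes. Neither relation passes the correction, and the deviations of Dusp5 are small, between -0.075 and 0.049 on the log2 scale. 

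**Figure D3:**
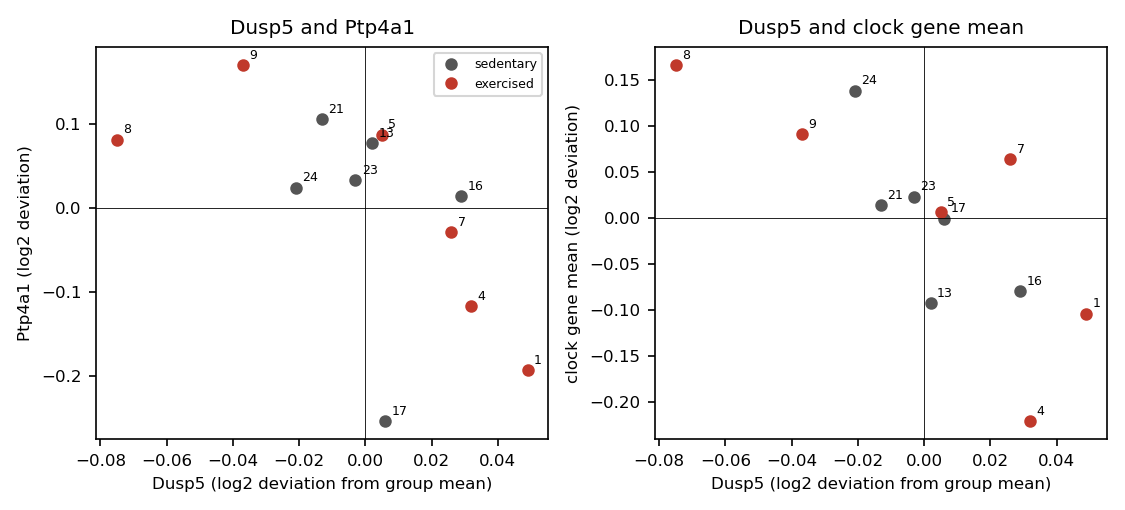
Deviation of Dusp5 from its group mean on each array (horizontal) against that of Ptp4a1 (left) and of the mean of 8 clock genes (right), all in log2 units, with sedentary samples in grey and exercised in red. The clock mean is weighted to its most variable genes, Dbp and Nr1d2. The clouds slope downward, with r of -0.604 and -0.779 over 12 arrays, and neither passes adjustment over 18 relations.

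Early genes are rapid targets of MAP kinase signalling. Their mean over 24 genes had an r of 0.321 with Dusp1, 0.312 with Dusp5, 0.389 with Dusp6 and -0.230 with Ptp4a1, with permutation adjusted p of 0.619 to 0.679. Egr1 weighed most in that mean, with a within-group SD of 0.569 against at most 0.24 for the other early genes. The single genes behind that mean went both ways for each phosphatase, which is given as a description with the genes at either end named after their values were seen. For Dusp5 the r ran from -0.699 with Gadd45a to 0.880 with Fos, with 16 of 24 positive, and for Dusp1 from -0.726 with Egr3 to 0.795 with Klf4, with 14 positive. For Dusp6 it ran from -0.387 with Ier5 to 0.641 with Jun (17 positive) and for Ptp4a1 from -0.651 with Jund to 0.621 with Atf3 (8 positive).

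Dusp1 had an r of 0.278 with the mean of 11 glucocorticoid response genes (adjusted p = 0.679) and a rho of 0.0699, and r turned to -0.156 without sedentary 13 and 17. Ptp4a1 had 0.554 with the same mean (adjusted p = 0.504), and 0.170 without exercised 1 and sedentary 17. Dusp1 and Dusp6 had an r of 0.388 with each other (adjusted p = 0.634), and Dusp1 and Dusp5 0.00793.

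The genes most like each member over the 12 arrays with group means removed were named by the highest Pearson r among 5377 named probe sets, as a description with no p. For Ptp4a1 they were Twf1, an actin monomer binding protein (0.959), Atp5if1, the inhibitor of the mitochondrial ATP synthase (0.932), and the mitochondrial chaperonin Hspd1 (0.905). The other probe sets of Atp5if1 had 0.571 and 0.830, whereas that of Twf1 had -0.105 and that of Hspd1 0.180. For Dusp1 they were Ensa, an inhibitor of protein phosphatase 2A (0.906), the growth factor Kitlg (0.878) and the DNA repair enzyme Parp1 (0.870, with 0.287 on its other probe set).

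For Dusp5 the most alike were the sterol enzyme Msmo1 (0.919), the small GTPase Rab13 (0.903) and thrombomodulin, Thbd (0.897), with 0.129 for the other probe set of Msmo1 and 0.044 for that of Thbd. For Dusp6 they were the membrane skeleton protein Add1 (0.888), the disulfide isomerase P4hb (0.875) and glutathione reductase, Gsr (0.855). The other probe sets of these 3 lay between -0.623 and 0.662. Of the 9 nearest genes with a further probe set, only Atp5if1 kept an r over 0.5 on every one.

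The rest of the pathway was read from 10 gene lists. Of 124 listed genes that were tested, 0 passed the threshold by limma and 0 by the exact permutation test per probe set, and 18 and 19 had an unadjusted p under 0.05. That is 14.5% by limma against 16.1% of all 3876 genes tested, of which 16 passed. By list, the limma counts were 4 of 8 clock, 3 of 11 glucocorticoid response, 5 of 24 early and 2 of 7 prenylation and magnesium genes. They were 2 of 9 MAP kinase targets, 1 of 7 MAP kinases and 1 of 27 tyrosine phosphatases. The count was 0 of 15 kinases and adaptors, 0 of 10 ERK pathway inhibitors and 0 of 6 other dual-specificity and PRL phosphatases. The differences between lists were not tested. With 6 arrays against 6 the exact permutation test cannot give a p under 0.00216, and its smallest adjusted p over all probe sets was 0.104. No probe set passed by that test, listed or not, so its 0 is no sign that the listed genes were unchanged. The median difference was -0.02 over the listed genes and 0.00 over all genes. The values named here are for the 4 genes of smallest p in each list.

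Among 6 other dual-specificity and PRL phosphatases (2 higher and 4 lower by sign, median -0.01), Dusp4, Dusp7 and Ptp4a2 are described above and Cdc25a, which activates cell cycle kinases, gave -0.01 ± 0.048 (limma adjusted p = 0.913). Of 27 listed genes of the tyrosine phosphatase family, 13 had a positive and 14 a negative difference (median -0.01). The receptor phosphatase Ptpra gave 0.13 ± 0.038 (818 ± 44.0 to 926 ± 50.1, limma adjusted p = 0.124), Ptprd 0.10 ± 0.045 (0.309), Ptprq -0.22 ± 0.11 (0.336) and the leukocyte phosphatase Ptprc, known as CD45, -0.14 ± 0.075 (0.369). Without sedentary 17 Ptprd gave 0.06, Ptprq -0.11 and Ptprc -0.06.

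Of 7 MAP kinases, the substrates of the dual-specificity phosphatases and their kin, 6 were lower by sign with a median of -0.10. Mapk4, an atypical kinase, gave -0.23 ± 0.074 (1409 ± 163 to 1153 ± 156, limma adjusted p = 0.154). The JNK genes Mapk8 and Mapk9 gave -0.12 ± 0.072 and -0.13 ± 0.079 (adjusted p = 0.413 each; -0.05 and -0.06 without sedentary 17), and Mapk7, the kinase ERK5, -0.10 ± 0.061 (0.446). Of 15 kinases and adaptors above them, 6 were higher and 9 lower by sign (median -0.02), and the adjusted p was at least 0.527. The scaffold Mapk8ip1 gave 0.27 ± 0.21, a value carried by sedentary 24 (0.03 without it), the p38 activator Map2k6 -0.12 ± 0.099 (-0.05 without sedentary 23), the adaptor Grb2 0.09 ± 0.077 and the kinase Map3k1 -0.04 ± 0.067.

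Among 9 targets of the MAP kinases the kinase Mapkapk2, which acts below p38, gave 0.15 ± 0.061 (3569 ± 253 to 4011 ± 312, limma adjusted p = 0.234), the transcription factor Myc -0.11 ± 0.048 (0.276), its partner Max -0.06 ± 0.034 (0.375) and Stmn1, a tubulin-binding protein, 0.06 ± 0.053 (0.611). Of 24 early genes 18 were lower and 6 higher by sign, with a median of -0.05. The nuclear receptor Nr4a1 gave -0.42 ± 0.12 (2871 ± 702 to 2015 ± 166, adjusted p = 0.103), Btg1, which restrains proliferation, 0.19 ± 0.071 (0.196), Jund -0.12 ± 0.050 (0.248; -0.08 without sedentary 17) and the zinc finger factor Klf6 -0.15 ± 0.063 (0.249). Of 10 other inhibitors of the ERK pathway 6 were higher by sign (median 0.01), with the feedback inhibitor Spry1 at 0.07 ± 0.051 (0.487), the Ras inactivators Rasa1 at 0.04 ± 0.047 (0.689) and Rasa2 at 0.04 ± 0.052 (0.698), and the ErbB receptor inhibitor Errfi1 at -0.04 ± 0.047 (0.706).

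Of 11 glucocorticoid response genes 7 were higher by sign, with a median of 0.11. Hsd11b1, which regenerates the active hormone, gave 0.28 ± 0.074 (2227 ± 277 to 2779 ± 236, limma adjusted p = 0.0922), annexin Anxa1 0.30 ± 0.081 (0.101), glutamine synthetase Glul 0.23 ± 0.067 (0.118) and Klf9 0.25 ± 0.12 (0.315). Of 8 clock genes 3 had a positive and 5 a negative difference (median -0.02). The repressor Bhlhe41 gave 0.35 ± 0.093 (0.0971), Nr1d2 0.59 ± 0.18 (0.141), Bmal1 -0.16 ± 0.057 (0.177) and Dbp 0.76 ± 0.27 (0.178).

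Of 7 genes of prenylation and magnesium transport, chosen for the anchor and the partners of Ptp4a1, 5 were higher by sign with a median of 0.03. The magnesium transporter Slc41a3 gave -0.35 ± 0.086 (2011 ± 279 to 1500 ± 191, limma adjusted p = 0.0888) and passed with array weights (0.017) and without sedentary 17 (0.0358). The alpha subunit shared by the farnesyl and geranylgeranyl transferases, Fnta, gave 0.20 ± 0.067 (928 ± 128 to 1119 ± 105, 0.162), the beta subunit Fntb 0.06 ± 0.051 (0.583) and Magt1 0.07 ± 0.070 (0.642). Of the listed CNNM partners of Ptp4a1, Cnnm4 was tested and did not pass, and the others were not analysed here.

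**Figure D4:**
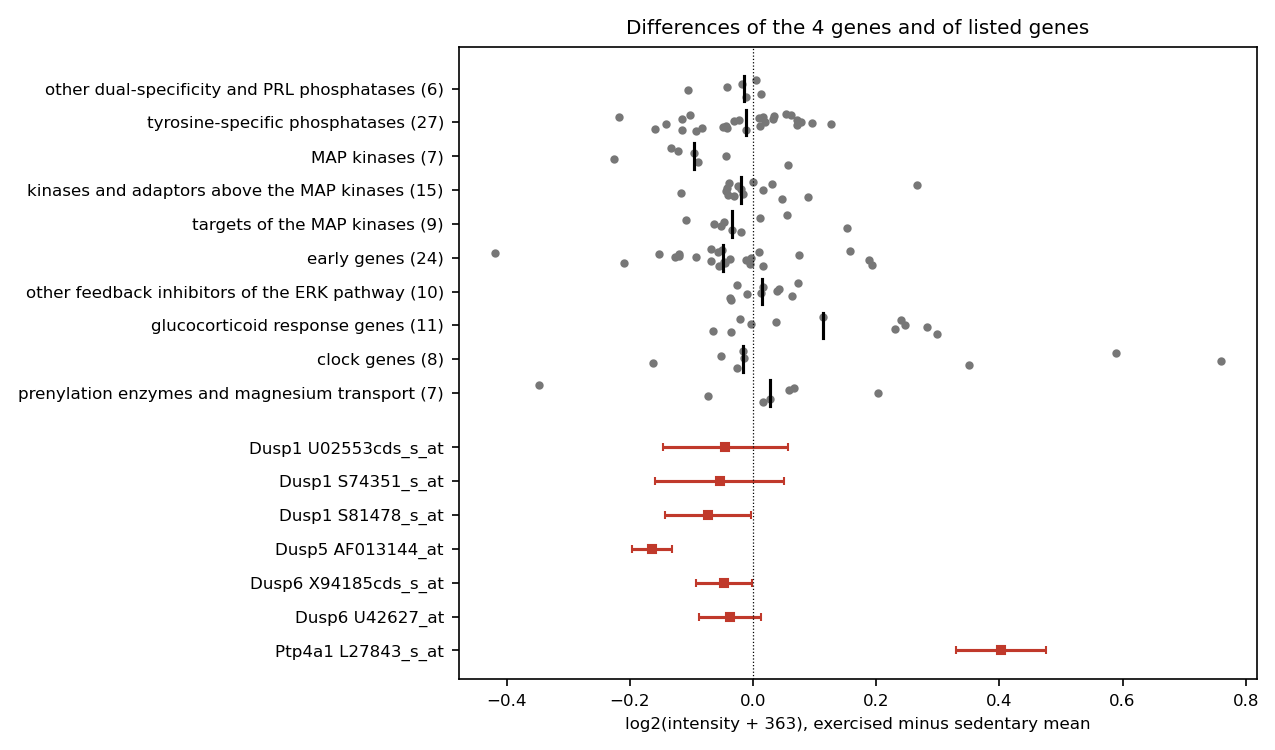
Exercised minus sedentary difference in log2(intensity + 363) for the 7 probe sets of the 4 genes (red squares, bars ± SE) and for each tested gene of the 10 lists (grey points, black bar at the list median, number of genes in brackets). Ptp4a1 (0.40) and Dusp5 (-0.16) lie apart from zero, Dusp1 and Dusp6 lie close to it, and the list medians lie between -0.10 and 0.11.

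Sums of markers listed for other cells moved between the groups to some extent, with overlap in every list. Their part in the values of Ptp4a1 and Dusp5 was not tested. Summed intensities of 9 fibroblast markers were 31160 to 40180 in sedentary and 36180 to 56240 in exercised samples, with 8 of 9 higher by sign. Those of 6 smooth muscle markers were 18430 to 21000 and 20240 to 25490 (6 of 6 higher), and those of 7 macrophage and leukocyte markers 14020 to 16310 and 15470 to 22160 (4 of 7 higher, of which 1 passed the threshold). The 6 endothelial markers summed to 5958 to 7829 and 5898 to 6286 (1 of 6 higher), the 4 atrial ones to 22480 to 51180 and 24360 to 43730 (2 of 4 higher), the 3 erythroid ones to 37210 to 42380 and 13480 to 38360 (0 of 3 higher), and the 7 skeletal muscle ones to 40810 to 45880 and 39350 to 44060 (4 of 7 higher). No marker was at 0 on any array. The sums mostly follow their bright markers. Des (14010 to 16280, sedentary to exercised mean) made up most of the smooth muscle sum, and Ckm (38050 to 36350) most of the skeletal muscle sum. Whether Des and Ckm came from those cells or from cardiomyocytes was not tested, so these 2 sums do not measure other cells. On their brightest probe sets Acta2 had a log2 difference of 0.34, Actg2 0.17, Tagln 0.10 and Myh11 0.04. The other Acta2 probe sets gave -0.05 and 0.06. Cnn1, counted among the 6 higher, was at 366.6 and 366.9 and did not pass the filter. In the macrophage and leukocyte list Lyz2 (2401 to 5421) passed the threshold, and the brightest marker, Cd74, went from 8333 to 8087.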

How the data were processed

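Gene expression was measured on 12 single-channel arrays of rat left ventricle, 6 exercised and 6 sedentary, grouped by title. The deposited table gives the authors' intensity per probe set on a linear scale. Array software, background correction and scaling were not stated (not given in the sources used here). The deposited scale was kept. Names came from the platform annotation (7006 probe sets with 1 symbol, 308 with several, 1426 unnamed), and 6985 matched RefSeq by Entrez ID. The test was limma 3.58.1 (lmFit, eBayes with trend, R 4.3.3) on log2(intensity + 363), the 20th percentile of all values, over 6555 probe sets with a mean above 434, the 25th percentile of means. Adjustment was Benjamini-Hochberg, two-sided, at 0.05. The probe set of highest mean stood for a listed gene. Correlations used Python 3.11.15, with permutation within groups. Scripts were tested on simulated data. The 4 genes and all lists were chosen with earlier results of these data known. Named were all members, the other Dusp and Ptp4a genes, the 4 genes of smallest p per list, and the 3 most alike genes per member. Agreement between probe sets of 1 gene was examined after the data were seen. Alternatives were other pseudocounts, a floor, other filters, scalings, eBayes settings, array weights, an exact permutation test, a threshold of 0.10 and each array left out. Leaving out exercised 4 and 5, or sedentary 16 and 17, was chosen after seeing the data. The number of arrays limits the precision.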

Additional observations from a re-analysis of the deposited data

Results flagged for a closer look

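By Dixon's ratio of gap to range at its critical value, 9 of 94 groups of 6 held a sample far from the rest. There were 2 groups for each probe set named from the members and lists. For independent normal groups that critical value is passed by chance in about 1 in 20. The 94 groups share the same arrays and most were named by small p, so their count cannot be set against that rate. Sedentary 17 accounted for 6 of the 9. It was low in Ptp4a1 (1625, with the next sedentary value at 2030) and in the dimmest Dusp1 probe set (439 against 628), low in Ptprd (314.7 against 417.6) and high in Mapk8 (1690 against 1243), Ptprc (1641 against 1168) and Errfi1 (1946 against 1731). The remaining ones were Mapk8ip1 on sedentary 24 (249.4 against 963.8), Magt1 on exercised 8 (796.3 against 643.5) and Ptprq on exercised 9 (1135 against 1047).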

How the results depend on the processing

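Over 24 alternative settings (23 for the dimmer probe set of Dusp6 and the dimmest of Dusp1, which a filter at the median removed) the direction held for Ptp4a1, Dusp5, both Dusp6 probe sets and the dimmest Dusp1 probe set. The groups of Ptp4a1 and Dusp5 do not overlap. Leaving out arrays, or changing the pseudocount, floor, filter or eBayes settings, could therefore not reverse their direction. The difference ran from 0.33 with a pseudocount of 1000 to 0.465 with a floor for Ptp4a1, whose adjusted p was under 0.05 in 14 of 24 alternative settings. For Dusp5 it ran from -0.217 with a floor to -0.1145 with a pseudocount of 1000, a range set by the log scale, and its adjusted p was under 0.05 in 5 of 24. The 24 settings leave out the threshold of 0.10 and the exact permutation test, by which no probe set passed. Dusp1 turned to 0.02 on its brightest and second probe sets without exercised 4 and 5. No paired analysis was possible because the groups share no replicate number. The number of probe sets past the threshold was 21 and moved to 32 without a filter, 50 with a filter at the median, 42 without trend, 160 with array weights, 144 at a threshold of 0.10, 4 without exercised 4 and 5, 5 without sedentary 16 and 17, and 0 by the exact permutation test, whose smallest adjusted p was 0.104 (1150 at an unadjusted p under 0.05, against 1060 by limma). Leaving out 1 array gave 3 (without sedentary 23) to 37 (without sedentary 13). With 6 arrays against 6 the exact permutation test cannot give an unadjusted p under 0.00216, which limits its count. The listed genes past the threshold were 0 and became 1 with array weights, 3 at a threshold of 0.10 (Slc41a3, Hsd11b1 and Bhlhe41), and 0 to 1 with 1 array left out. Signal over background is unknown for these arrays.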
